A study of Homo sapiens with 4 samples.

Results

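This account follows 41 genes of the splicing machinery through depletion of the hnRNP-like RNA-binding protein RALY in HCT116, an established human colorectal carcinoma cell line. The genes were chosen by name and matched by symbol to the 58884 gene rows of the count tables, where all 41 were found. They comprise 12 SR protein and TRA2 genes, 23 core spliceosome genes and 6 kinase genes. The data are gene counts from RNA sequencing of total RNA, with 2 libraries from controls and 2 from cells depleted of RALY. The knockdown cells received lentivirus with a short hairpin RNA against RALY for 72 h. The labels call the controls wild type or untreated, while the protocol text names a nonsilencing hairpin, so which of these the controls were cannot be told apart here. The source label does not spell the name of the line the same way for all 4 libraries, but the cell line label does, as HCT-116. How many hairpins were used is not given in the sources. The labels do not tell whether libraries of 1 group are separate cultures, so the p-values rest on the spread between libraries alone, and that spread may be technical.

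In the nucleus, introns are removed by the spliceosome, which is built from small nuclear ribonucleoproteins (snRNPs). U1 binds the 5' splice site, U2 with the help of the U2AF heterodimer binds the branch site and 3' splice site, and the tri-snRNP of U4, U6 and U5 then joins. SR proteins bind exons through RNA recognition motifs and recruit these particles through domains rich in arginine and serine. Kinases of the SRPK family phosphorylate those domains in the cytoplasm and so promote nuclear import, and kinases of the CLK family phosphorylate them further in the nucleus.

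Library totals ran from 13360007 to 16847520 counts. RALY had 144 and 123 CPM (counts scaled to a library size of 1e6 with TMM factors) in the controls and 39.6 and 35.1 CPM in the knockdown libraries, a log2 fold change of -1.84 (SE 0.127, edgeR adjusted p = 6.59e-06). Of 8 epithelial markers of the line, 6 were above 10 CPM in the controls, whereas VIL1 and CEACAM5 were under 1 CPM. Most markers of other cells were low: 4 of 6 fibroblast, 3 of 6 leukocyte and 4 of 6 HEK293T markers were under 1 CPM in the controls, and COL1A1 at 121 CPM and CRABP2 at 88.8 CPM were the highest of the rest. The summed levels of these lists in controls and knockdown lay close together (fibroblast 137 and 118 CPM, leukocyte 35.2 and 34.2 CPM, HEK293T 120 and 121 CPM). These sums rest mainly on COL1A1, on CD68, and on CRABP2 with PAX2, and say little of the low markers, which moved in either direction. GAPDH and EEF1A1, both abundant, had 2.07 and 0.934 counts per base of their canonical transcript. A levelling off of counts in abundant genes could compress fold changes, but whether it took place was not tested. A fit was run beside the main one on counts corrected as if they level off at 2 counts per base. Occupancy is the mean count as a share of that assumed level over the canonical transcript. The level is no strict ceiling: DDX39B, a splicing helicase gene, was at 152.0%. Counts pool all exons of a gene, 7007 bases for DDX39B, whereas its canonical transcript has 1681.

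Of the 41 genes, SRPK2 alone passed the test. It fell, and no member rose (edgeR quasi-likelihood test, Benjamini-Hochberg adjusted p under 0.05 over 19686 genes). All 41 passed the filter on low counts. The share of members called was 2.44%, against 25.6% of all genes tested (12.5% higher and 13.1% lower in the knockdown). The median log2 fold change was 0.00 over the members and 0.01 over all genes tested. The median size of the change, without its sign, was 0.09 and 0.31. Members also had higher counts, with a median of 139 CPM against 29.0 CPM, and a smaller median SE, 0.126 against 0.168. Whether this has a part in the smaller changes was not tested. For 13 members, or 31.7%, the knockdown libraries did not overlap the controls, a smaller share than the 63.6% of all genes tested. Of these, 7 lay higher (SRSF1, SRSF4, SRSF10, SF3B3, CLK1, CLK3 and SRPK1) and 6 lower (TRA2A, SF3A1, PRPF31, SNRPA, SNRPE and SRPK2). An unadjusted p under 0.05 was reached by 6 members (SRPK2, CLK3, SNRPA, CLK1, SNRPE and SRSF4). Over all genes tested that share was at least the 25.6% called, since adjustment never lowers a p-value.

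A test that is not passed does not show that a level stayed the same, so the interval of each difference matters. For 35 of the 41 members the 95% interval of the difference lay within 1.5-fold in either direction. The same held for 87 of 105 other splicing genes tested, described below, and the share over all genes tested was not counted. The 6 whose interval reached further were SRPK2, CLK1, CLK3, SRSF4, SNRPE and U2AF1. Intervals are for 1 gene at a time and were not widened for the number of genes. Their width also draws on the spread of the other genes tested, and would be larger from the libraries of a gene alone.

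**Figure D1:**
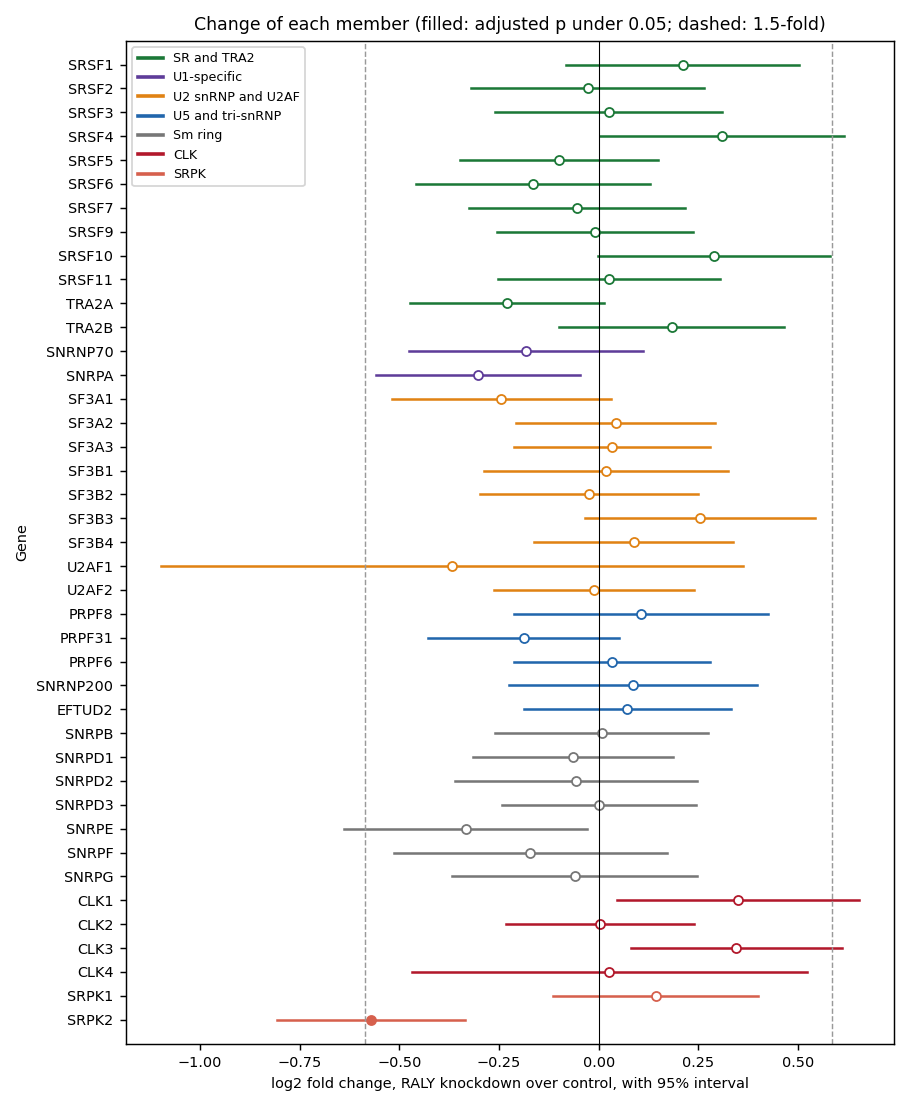
The x axis gives the log2 fold change of RALY knockdown over control for each of the 41 genes on the y axis, with its 95% interval from the edgeR fit, coloured by role in splicing; filled points passed an adjusted p of 0.05 and dashed lines mark 1.5-fold. SRPK2 at -0.57 is the filled point, and 35 intervals stay between the dashed lines.

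The kinases had the widest range of changes of the 3 classes, from -0.57 for SRPK2 to 0.35 for CLK1 on the log2 scale. Among the 6 kinase genes, 1 was lower, none was higher and 5 did not pass, with a median log2 fold change of 0.08. For SR and TRA2 genes the median was 0.01 and for core spliceosome genes -0.01, with no call among 12 and 23 members. Of these 35 genes, 3 had an unadjusted p under 0.05, beside at least 25.6% of all genes tested. DESeq2 also called none of the 35. The difference between the classes itself was not tested.

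SRPK2, a kinase that phosphorylates SR proteins in the cytoplasm, lies on chromosome 7 (ENSG00000135250, positions 105110704 to 105399308, minus strand, GRCh38). Its counts were 1399 and 1848 in control cells and 1168 and 1047 after knockdown. Scaled to library size, these are 106 and 107 CPM against 72.9 and 70.4 CPM. Both knockdown libraries lay well below both controls, and the 2 libraries of each group nearly coincided. The mean went from 106.5 ± 0.615 to 71.6 ± 1.74 CPM (SD, n = 2 each), so SRPK2 fell by 32.7% (log2 fold change -0.57, SE 0.108, 95% interval -0.81 to -0.34, edgeR adjusted p = 0.00277). Without control replicate 2 the value was -0.58 and the adjusted p 0.0586 (edgeR), so that its call was lost; without control replicate 1 it was -0.61 (edgeR adjusted p = 0.0465). In these bulk libraries, fewer cells with the transcript and less of it per cell cannot be told apart.

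SRPK1, the paralog of SRPK2 with the same role (chromosome 6, 35832966 to 35921342, minus strand), had 202 and 188 CPM in the controls and 222 and 209 CPM in the knockdown libraries. The knockdown libraries were the higher ones, but the log2 fold change of 0.14 did not pass the test (95% interval -0.11 to 0.40, edgeR adjusted p = 0.410). The ratio of SRPK2 to SRPK1 counts within a library, which needs no scaling between libraries, was 0.524 and 0.568 in control libraries, against 0.328 and 0.337 after knockdown. SRPK1 shares 28.1% of its exon bases with LHFPL5, a neighbouring gene, so part of its count is uncertain. SRPK2 shares 3.68% of its exon bases with other genes.

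Whether reads could be exchanged between such paralogs depends on how alike the transcripts are. The coding sequences of the canonical GENCODE transcripts were therefore compared, and the stretches below show the longest run that both members of a pair share, in capitals, with up to 15 bases on either side in lower case. For SRPK1 and SRPK2 that run is 23 bases, from coding position 517 in SRPK1 and 553 in SRPK2, counted from the start codon. For CLK1 and CLK4, the closest pair among the CLK genes, it is 34 bases, from coding position 422 in CLK1 and 416 in CLK4.
SRPK1: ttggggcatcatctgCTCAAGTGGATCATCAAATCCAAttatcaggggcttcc
SRPK2: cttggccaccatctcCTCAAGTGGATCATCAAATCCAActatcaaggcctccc
CLK1: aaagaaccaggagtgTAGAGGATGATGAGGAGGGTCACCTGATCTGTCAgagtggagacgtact
CLK4: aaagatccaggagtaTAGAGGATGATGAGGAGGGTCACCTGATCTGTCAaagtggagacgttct
Bases just outside the capitals differ by construction, since each run ends where the pair differs. Parts of the transcripts outside the coding sequence were not compared. Between any 2 of the SR and TRA2 genes the longest shared run was 17 bases. No source used here gives the read length.

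CLK1, a nuclear kinase whose transcript is often kept with introns unspliced (chromosome 2, 200853009 to 200864744, minus strand), had 69.7 and 90.9 CPM in the controls and 94.3 and 111 CPM in the knockdown libraries. The lower knockdown library was only just above the higher control, and the controls differed from each other by 0.385 on the log2 scale. The log2 fold change was 0.35 (SE 0.140, 95% interval 0.05 to 0.65) and did not pass the test (edgeR adjusted p = 0.0852). It was 0.44 without knockdown replicate 1, where CLK1 was called (edgeR adjusted p = 0.00402), and 0.14 without control replicate 1.

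CLK3, a related kinase (chromosome 15, 74598500 to 74645414, plus strand), had 83.5 and 99.4 CPM in the controls and 110 and 123 CPM in the knockdown libraries. Again the groups did not overlap, and the log2 fold change of 0.34 (SE 0.122, 95% interval 0.08 to 0.61) missed the threshold narrowly (edgeR adjusted p = 0.0557). CLK3 was called without knockdown replicate 1 (0.40, edgeR adjusted p = 0.0100) and with counts corrected for levelling off (0.44, edgeR adjusted p = 0.0454). Without control replicate 1 its log2 fold change was 0.19.

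CLK4, the closest relative of CLK1, had the lowest counts of the 6, with 17.2 and 29.9 CPM in the controls and 22.6 and 25.7 CPM in the knockdown. Both knockdown values fell between the controls, and the interval of the log2 fold change, -0.47 to 0.52, was wide. CLK2 had 102 and 101 CPM in the controls and 105 and 97.8 CPM in the knockdown, a log2 fold change of 0.00 (95% interval -0.23 to 0.24). Within a library, CLK1 counts were 4.05 and 3.04 times those of CLK4 in control libraries, against 4.18 and 4.31 times after knockdown. Levels per kilobase of canonical transcript in the controls were 49.3 CPM for CLK3, 47.0 for CLK2, 44.9 for SRPK1 and 43.5 for CLK1, values that lie close together, then 28.9 for SRPK2 and 9.41 for CLK4. GENCODE lists 14 transcripts of CLK1, of which 8 are annotated as retained intron and 2 as subject to nonsense-mediated decay. For CLK4 the numbers are 13, 7 and 3. The counts are per gene and pool all of these forms. For CLK3 they cover 20443 exon bases against 1854 in the canonical transcript, so the levels per kilobase and their order are uncertain.

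**Figure D2:**
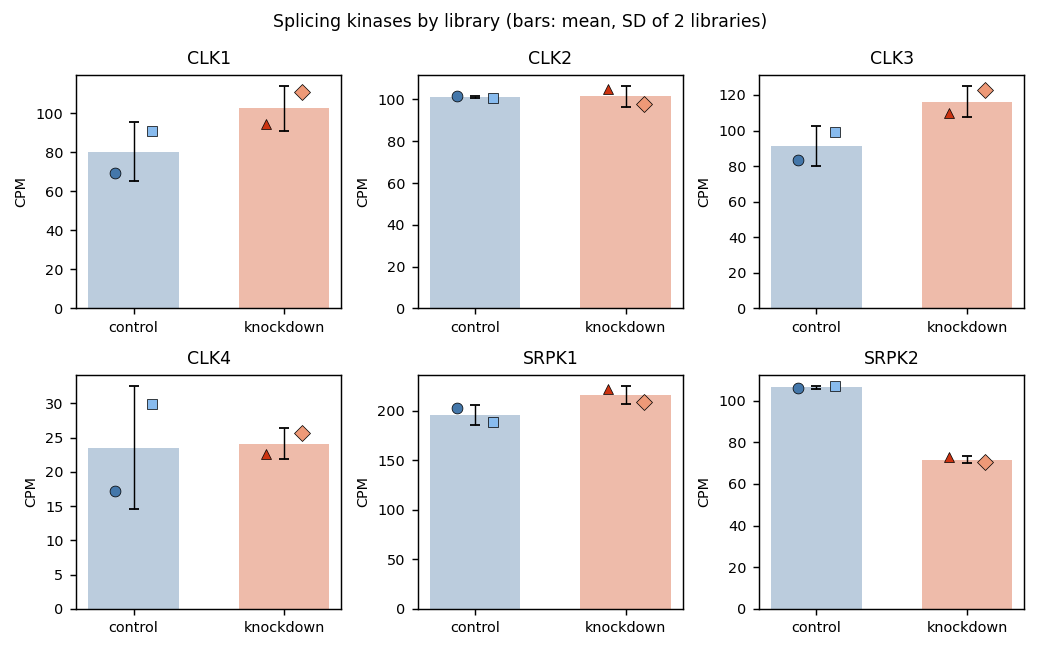
CPM on the y axis for the 6 kinase genes in control and RALY knockdown libraries; bars are means of 2 libraries, error bars the SD, and points the single libraries. SRPK2 falls from 106.5 to 71.6 CPM with tight pairs, whereas the control points of CLK1 and CLK4 stand far apart.

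None of the 12 SR and TRA2 genes was called, and their log2 fold changes ran from -0.23 for TRA2A to 0.31 for SRSF4, with 6 above 0 and 6 below. SRSF4, an SR protein with a long arginine and serine domain (chromosome 1, 29147743 to 29181900, minus strand), had 146 and 112.5 CPM in the controls and 174 and 146 CPM in the knockdown libraries. The lower knockdown library was level with the higher control. Its log2 fold change was 0.31 (SE 0.141, edgeR adjusted p = 0.127), and SRSF4 was called only without knockdown replicate 2 among the fits that leave out 1 library (0.43, edgeR adjusted p = 0.0177). Without control replicate 2 the value was 0.12.

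SRSF10, which acts as a repressor of splicing when dephosphorylated (chromosome 1, 23964804 to 23980927, minus strand), had 283 and 241 CPM in the controls and 335 and 306 CPM in the knockdown. The groups did not overlap, with a log2 fold change of 0.29 (SE 0.134, edgeR adjusted p = 0.133). SRSF1, the founding SR protein, lay higher in both knockdown libraries, at 338 and 297.5 CPM against 293 and 256 CPM, without passing the test (log2 fold change 0.21, edgeR adjusted p = 0.276). TRA2A and TRA2B, a pair of SR-like activators that bind purine-rich exons, had log2 fold changes of opposite sign, -0.23 and 0.18, neither of which passed (edgeR adjusted p = 0.153 and 0.330). SRSF2, SRSF3, SRSF5, SRSF6, SRSF7, SRSF9 and SRSF11 all overlapped between the groups, with log2 fold changes from -0.16 to 0.03. In the controls, levels per kilobase of canonical transcript, with counts pooled over all exons, ran from 34.2 CPM for SRSF10 to 109 CPM for SRSF2. Counts of SRSF1, SRSF2 and SRSF9 are uncertain, since 35.1%, 36.7% and 46.7% of their exon bases lie in another annotated gene as well (MFSD11 for SRSF2 and GATC for SRSF9).

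Among the 23 core spliceosome genes, the pair of U1-specific proteins had the lowest median, -0.24 on the log2 scale, with neither called. SNRPA, the U1 protein that binds a stem loop of U1 RNA (chromosome 19, 40750637 to 40765389, plus strand), had 98.5 and 84.2 CPM in the controls and 74.3 and 73.8 CPM in the knockdown libraries. Both knockdown libraries were below both controls, and the log2 fold change was -0.30 (SE 0.118, 95% interval -0.56 to -0.05, edgeR adjusted p = 0.0785). It was -0.43 with counts corrected for levelling off, where SNRPA was called (edgeR adjusted p = 0.0210). SNRNP70, the U1 protein that contacts SR proteins, had 225 and 193 CPM in the controls and 203 and 166 CPM in the knockdown, which overlap (log2 fold change -0.18, edgeR adjusted p = 0.356).

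The 9 genes of the U2 snRNP and of U2AF had a median log2 fold change of 0.02 and no call. SF3A1, a subunit of the SF3A complex, had 248 and 215 CPM in the controls and 205 and 186 CPM after knockdown, a log2 fold change of -0.24 (SE 0.126, edgeR adjusted p = 0.178). SF3B3, a subunit of the SF3B complex, lay in the other direction, with 304 and 265 CPM against 354 and 324 CPM (0.25, SE 0.133, edgeR adjusted p = 0.183). In both genes the groups did not overlap. SF3B1, which clamps the branch site, had 388 and 319 CPM in the controls and 372 and 343.5 CPM in the knockdown, within the control range. U2AF2, the subunit that binds the polypyrimidine tract, had 185.5 and 174 CPM in the controls and 185 and 171 CPM in the knockdown. SF3A2, SF3A3, SF3B2 and SF3B4 also overlapped between the groups, with log2 fold changes from -0.02 to 0.09.

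U2AF1, the subunit of U2AF that reads the AG at the 3' splice site, stood apart in its counts, which were 227 and 125 in control cells and 171 and 120 after knockdown (17.2 and 7.23 CPM against 10.7 and 8.07 CPM). The controls differed from each other by 1.25 on the log2 scale. GRCh38 carries a second annotated copy of this gene on the same chromosome, and the count tables list it separately (ENSG00000275895, chromosome 21, positions 6484623 to 6499261, minus strand; U2AF1 itself spans 43092956 to 43107587). GENCODE marks this copy as an artifact, so its counts need not come from a separate gene. All 8 coding exons of U2AF1, 720 bases in all, were found in the copy with 0 differing bases. The stretch below is coding exon 3 of U2AF1 and its counterpart, shown because no read within it can be placed at one copy rather than the other. In GRCh38 they lie at chr21:43100453-43100519 and chr21:6492131-6492197, both on the minus strand.
U2AF1: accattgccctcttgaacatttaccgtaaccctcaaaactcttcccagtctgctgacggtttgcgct
Second copy: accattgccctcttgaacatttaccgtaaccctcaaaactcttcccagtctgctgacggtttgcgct

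Counts at the second copy were 86 and 102 in control cells and 677 and 190 after knockdown. The count row of the copy, which is not among the 41 members, was itself called higher (log2 fold change 2.15, SE 0.417, edgeR adjusted p = 0.0031). With the copy marked as an artifact, this call does not show a further gene that responds to the knockdown. Most of the excess stood in knockdown replicate 1. Summed over both copies, control libraries had 313 and 227 counts and knockdown libraries 848 and 310, or 23.7 and 13.1 CPM against 52.9 and 20.8 CPM. On these sums the groups overlap, and the log2 fold change is 1.01 (edgeR adjusted p = 0.0529), where U2AF1 alone gave -0.37 (SE 0.336, edgeR adjusted p = 0.461). U2AF1 alone was at 0.34 without control replicate 1 and at -0.89 without control replicate 2. Over the coding exons, counts of the copies cannot be told apart.

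**Figure D3:**
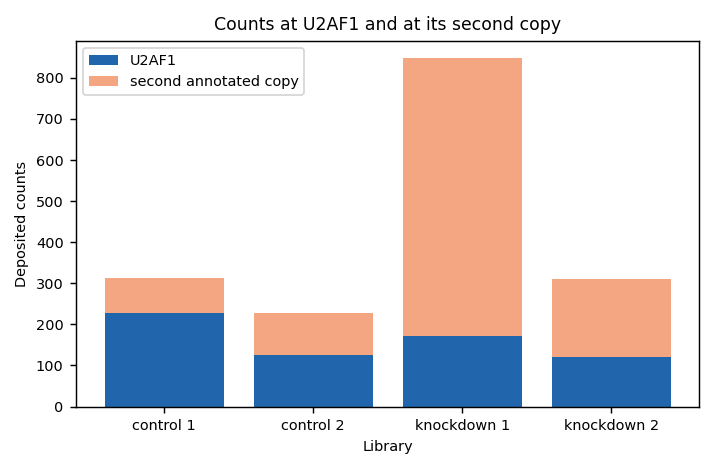
Deposited counts on the y axis for U2AF1 and for its second annotated copy, stacked, in each of the 4 libraries on the x axis. GENCODE marks the copy as an artifact. The copy takes 677 of 848 counts in knockdown 1 and 86 of 313 in control 1.

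The 5 genes of the U5 snRNP and tri-snRNP changed little, with log2 fold changes from -0.19 to 0.11. PRPF31, which holds the tri-snRNP together, had 121.5 and 110 CPM in the controls and 103 and 100.5 CPM in the knockdown, with no overlap (log2 fold change -0.19, SE 0.110, edgeR adjusted p = 0.237). It shares 32.0% of its exon bases with other genes. PRPF8, the protein at the catalytic centre, had the highest counts of the 41, with 515 and 438 CPM in the controls and 538 and 488 CPM in the knockdown (0.11, edgeR adjusted p = 0.643). PRPF6, the helicase gene SNRNP200 and the GTPase gene EFTUD2 had log2 fold changes of 0.03, 0.09 and 0.07, and their groups overlapped.

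The 7 genes of the Sm ring, the set of proteins that encircles the spliceosomal RNAs, had a median log2 fold change of -0.06. SNRPE (chromosome 1, 203861599 to 203871152, plus strand) had 49.8 and 43.3 CPM in the controls and 39.1 and 34.6 CPM in the knockdown, and it alone of the ring did not overlap between the groups. Its log2 fold change was -0.33 (SE 0.140, 95% interval -0.64 to -0.03, edgeR adjusted p = 0.0998), and it was called without knockdown replicate 1 (-0.44, edgeR adjusted p = 0.0254). SNRPF had 40.2 and 31.1 CPM in the controls and 31.7 and 31.5 CPM in the knockdown, so that control replicate 1 alone was high (log2 fold change -0.17, edgeR adjusted p = 0.465). SNRPB, SNRPD1, SNRPD2, SNRPD3 and SNRPG lay between -0.06 and 0.01. Proteins of the ring assemble together, but the counts of SNRPE and of the other members were not tested against each other.

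The controls themselves were not alike for these genes. All 35 SR and core spliceosome genes were lower in control replicate 2 than in control replicate 1, by a median of 0.21 on the log2 scale. The median over all genes tested was 0.00. This shift was not particular to the 35 genes. Of the 105 other splicing genes tested, described below, 83 were lower in control replicate 2 and 22 higher, with a median difference of -0.13. For CLK1, CLK3, CLK4 and SRPK2 the order was the opposite, with differences of 0.385, 0.25, 0.80 and 0.01. The same held in part after correction for levelling off: 31 of the 35 genes were lower in control replicate 2, by a median of 0.20. In the knockdown pair the median difference over the 35 genes was -0.05. The 35 genes thus share a shift within the control pair and are not independent of each other. Their occupancy had a median of 45.3% over the 35 SR and core genes, with 90.0% for SNRNP70 and 82.1% for SRSF2 at the top, 36.2% over the kinases, 18.6% for SRPK2 and 8.62% over all genes tested. Whether occupancy has a part in the difference between the kinases and the other members was not tested.

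**Figure D4:**
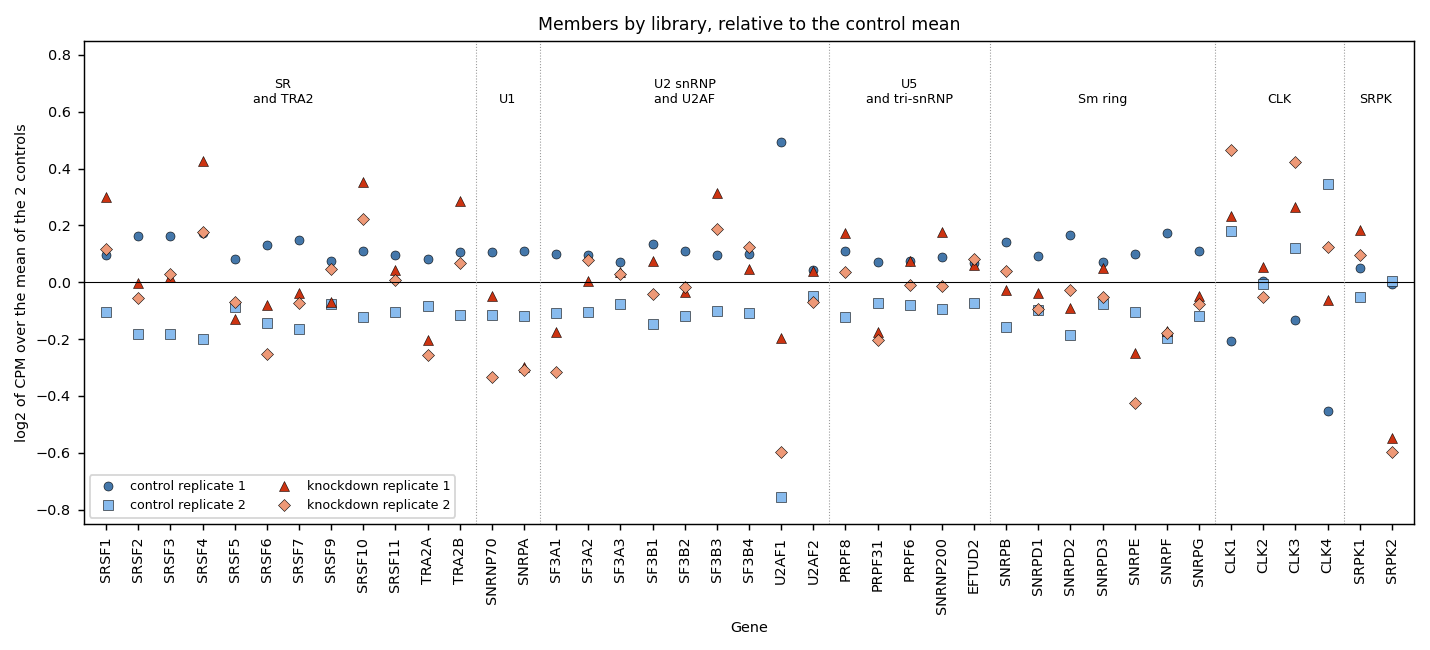
Each point is the CPM of a gene (x axis) in 1 library, as the log2 ratio to the mean of the 2 controls (y axis), grouped by role. Control replicate 2 lies below control replicate 1 for all 35 SR and core spliceosome genes, and above it for CLK1, CLK3 and CLK4.

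Other genes of the pathway were taken from a list of 107, of which 105 were tested. Among these, 7 rose and 5 fell, or 11.4% called, again against 25.6% of all genes tested. Fewer were called when either control was left out, here and over all genes, and none of those still called was higher in the knockdown. Most genes called in the main fit lost their call in those fits, in these lists and outside them. Of 16 other kinases, phosphatases and the import receptor TNPO3, 3 rose and none fell. DYRK3, a kinase that promotes the dissolution of cellular condensates, had 22.3 and 26.8 CPM in the controls and 39.3 and 49.8 CPM in the knockdown libraries (log2 fold change 0.86, SE 0.164, edgeR adjusted p = 0.00295). DYRK1A, a kinase that phosphorylates splicing factors among other proteins, went from 99.2 and 102 CPM to 155 and 138 CPM (0.54, edgeR adjusted p = 0.00455). SRPK3, the other gene of the SRPK family, rose from 8.03 and 9.66 CPM to 14.5 and 18.8 CPM (0.91, edgeR adjusted p = 0.0108), and shares 30.2% of its exon bases with PLXNB3. In each of these 3 kinases both knockdown libraries lay above both controls, and each lost its call when either control was left out.

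Of 17 further SR and SR-related genes tested, 3 rose. SCAF8 and SCAF4, which bind the tail of RNA polymerase II, had log2 fold changes of 0.54 and 0.35, and RNPS1, a protein deposited with the exon junction complex, 0.39 (edgeR adjusted p = 0.00624, 0.0325 and 0.0391). All 3 lost their call when either control was left out, as did most genes called in the main fit. RNPS1 had an occupancy of 94.3%, and its log2 fold change was 0.83 with counts corrected for levelling off. RNPS1 also lost its call without knockdown replicate 1 (edgeR adjusted p = 0.0809). SCAF4 was called in 6 of 11 alternative fits, and lost its call without knockdown replicate 2 (edgeR adjusted p = 0.0714), with no filter on low counts (edgeR adjusted p = 0.0603) and with DESeq2 (adjusted p = 0.0513).

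Of the 5 genes that fell, 4 belong to the lists for the tri-snRNP and the catalytic stages. The shares that fell were 5% and 13% of these lists, beside 13.1% of all genes tested. Of 23 genes of the Prp19-associated complex (NTC) and catalytic steps, 3 fell and none rose. XAB2, a scaffold associated with the Prp19 complex, had 166 and 142 CPM in the controls and 87.7 and 76.0 CPM in the knockdown libraries (log2 fold change -0.91, SE 0.124, edgeR adjusted p = 0.000394). The helicase genes DHX16, which acts before the first catalytic step, and DHX8, which releases the spliced product, had log2 fold changes of -0.64 and -0.54 (edgeR adjusted p = 0.00126 and 0.00910). Of 20 other tri-snRNP genes 1 fell, SART1, which helps the tri-snRNP join the spliceosome, from 117 and 108 CPM to 68.8 and 55.2 CPM (-0.86, SE 0.128, edgeR adjusted p = 0.000670). XAB2, SART1 and DHX16 were called in all 11 alternative fits, whereas DHX8 lost its call when either control was left out.

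Of 19 other U1 and U2 factors tested 1 fell, PRPF40B, which associates with U1 (log2 fold change -0.78, edgeR adjusted p = 0.00129). PRPF40B shares 48.7% of its exon bases with FMNL3 and FAM186B, so its count is uncertain, and its call was lost without control replicate 2 (edgeR adjusted p = 0.0632). Of 10 genes of the minor spliceosome, which removes a rare class of introns, 1 rose, CENATAC. It went from 70.6 and 70.2 CPM to 95.8 and 104 CPM (0.50, SE 0.111, edgeR adjusted p = 0.00624). This call too was lost when either control was left out, as were most calls over all genes. By direction, 18.8% of the kinase and phosphatase list and 17.6% of the SR-related list rose, beside 12.5% of all genes tested, and these shares rest on 3 genes each and were not tested.

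**Figure D5:**
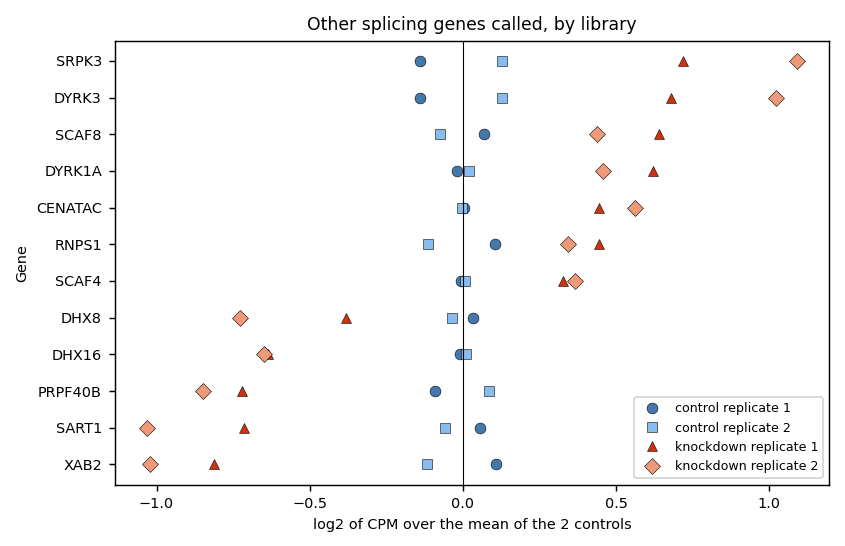
Each point is the CPM of 1 of the 12 called genes (y axis) in 1 library, as the log2 ratio to the mean of the 2 controls (x axis). The 7 genes that rose have both knockdown points to the right of both controls, and the 5 that fell have both to the left.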

How the data were processed

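The deposited values are whole-number counts per gene, 1 table per library, in the featureCounts layout per the file headers. HISAT2 2.0.4, Subread, featureCounts and SAMtools, with GRCh38, are named in the submitters' processing notes. Their roles and settings, strand use and duplicate removal are not given in the sources. Symbols came from GENCODE release 44 by gene ID (58472 of 58884 matched), transcript sequences from the same release and exon sequences from GRCh38.

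Counts were fitted with edgeR 4.0.16 under R 4.3.3 (filterByExpr, TMM factors, robust quasi-likelihood F test with a group term, 2 residual degrees of freedom). P-values were adjusted by Benjamini-Hochberg over 19686 genes and called under 0.05. The SE is the log2 fold change divided by the root of F. Intervals use the test's total degrees of freedom, which exceed the 2 residual ones because each gene's variance is moderated with that of other genes. CPM values use TMM-scaled totals. Between libraries of 1 group the chi-square of the counts, per degree of freedom, was 5.22 in controls and 9.44 in knockdown, which is above counting noise.

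The members and lists were chosen with earlier results of these data known. Named with values are called members, the 2 members of each class with the smallest p, and up to 3 called genes per direction of each further list. SRSF1, SF3B1, U2AF1, U2AF2, TRA2A, TRA2B, CLK2 and CLK4 were also given, chosen after their values were seen. Alternatives were DESeq2 1.42.0 (its size factors, its Wald test), plain totals, 2 other filters, a replicate block, each library left out, and counts corrected for an assumed levelling off at 2 counts per base, with occupancy capped at 95%. Summing U2AF1 with its copy was added after seeing the data.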

Additional observations from a re-analysis of the deposited data

How the results depend on the processing

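Over all genes, 5048 were called, and between 984 and 6259 when 1 library was left out; without control replicate 1 or 2 the counts were 1008 and 984. Leaving out 1 library gave 0 to 1 called SR and TRA2 genes, 0 to 1 core spliceosome genes, 0 to 3 kinases (0 without control replicate 2, 3 without knockdown replicate 1) and 3 to 14 of the other splicing genes. Such fits rest on the spread of the remaining pair, and the lone library is assumed to vary like the other group. With counts corrected for levelling off, 1 core spliceosome gene (SNRPA) and 2 kinases (SRPK2 and CLK3) were called. With the replicate number as a block, 2 SR genes (SRSF4 and SRSF10), 2 core spliceosome genes (SNRPA and SNRPE) and 3 kinases (SRPK2, CLK1 and CLK3) were called, among 7054 of all genes (35.8%). The numbers are not known to pair the libraries: the differences between replicates 2 and 1 correlated across genes with r = 0.239, from only 2 pairs. RALY stayed called in all 11 alternative fits. Of the 41 members, 34 were called in none of the alternatives, and no called value changed sign. SRPK2 ran from -0.64 to -0.55 and was called in 10 of 11. With 2 libraries a group, the SE of a member's log2 fold change was 0.108 to 0.336, which limits the size of change that can be seen.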
